A study of Homo sapiens with 3 samples.

Results

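CD81 mRNA was listed in the parental hepatocellular carcinoma line and in neither of its 2 metastatic subclones, while TSPAN8 mRNA was higher in both subclones and the 5 other members with a mean of at least 1 RPKM differed from the parent by less than 2-fold. CD81 and TSPAN8 belong to the tetraspanins, and 10 genes of this family are described here: CD81, CD9, CD63, CD82, CD151, CD37, TSPAN4, TSPAN8, TSPAN1 and TSPAN31. They were taken by symbol from the 16149 genes listed in any library. The group was chosen by the RPKM of these same libraries, around the CD81 values, so the levels and ratios of its members are a description and no test is attached to them.

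The data are mRNA sequencing of 3 lines in culture, and each line gave 1 library. The parent was HCCLM3, a human hepatocellular carcinoma line to which the labels give a low ability to metastasise, whereas the study describes its parental line as highly metastatic. Subclone 1 was derived from it and is labelled as more metastatic, with the lung as its target. Subclone 2, also a derivative of HCCLM3, is labelled as reaching both the lung and the celiac lymph node. The study took its parental cells as a derivative of HCCLM3 that carries a red fluorescent protein, recovered cells from metastases in nude mice and grew clones from them by limiting dilution, but neither the labels nor its text says which clones were sequenced. If the subclones are such clones, each stands for 1 clone. All 3 lines were cultured in DMEM and received no treatment that the labels mention. Since each line has 1 library, no difference between lines has a replicate check, and the intervals given below cover counting error only.

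Reads on genes numbered 4488825 (parent), 4609696 (subclone 1) and 4725150 (subclone 2), spread over 14703, 14900 and 14931 listed genes. Levels are in RPKM, which divides the reads of a gene by its length and by the size of the library, so they can be compared between genes. Whole reads could be recovered from the RPKM of 99.5% of genes. Hepatocyte markers, the defining markers of the labelled origin, differed between the lines. The 8 of them summed to 12.9 RPKM in the parent (7 of 8 listed), to 101 RPKM in subclone 1 (7 of 8) and to 89.7 RPKM in subclone 2 (8 of 8), with TTR at 0 in the parent and in subclone 1. ALB alone gave 49.5 RPKM of the sum in subclone 1 and 68.8 RPKM in subclone 2. Markers of other cell types summed to less than the hepatocyte markers in each library. In the parent the gap was small, with 8.41 RPKM for leukocyte markers beside 12.9 RPKM. The 8 leukocyte markers summed to between 8.41 and 12.3 RPKM, nearly all of it CD79A, with MS4A1, CD79B and CD3E at 0 in every library. The 6 fibroblast markers summed to between 3.34 and 7.17 RPKM with PDGFRB at 0 throughout, and the 5 endothelial markers to between 5.11 and 11.9 RPKM with CDH5 at 0 in the parent and subclone 2. The part of these marker differences in the tetraspanin values was not tested.

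Tetraspanins are small proteins that cross the membrane several times and gather integrins, proteases and receptors into membrane patches. CD81, CD9 and CD63 are the members most used to mark extracellular vesicles. In liver, CD81 is known as a receptor that hepatitis C virus needs for entry. Their larger extracellular loop holds a Cys-Cys-Gly motif, whose cysteines form disulphide bonds that fold the loop.

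The sequence of that motif is shown for the gene that was lost from the lists, the gene that was higher, and the pair of members with high levels in every line that serve as vesicle markers. Each line gives 45 bases of coding sequence, 5′ to 3′, with the Cys-Cys-Gly codons in capitals, from GENCODE 29 on GRCh38.
CD81: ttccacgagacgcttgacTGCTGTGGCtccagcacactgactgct
TSPAN8: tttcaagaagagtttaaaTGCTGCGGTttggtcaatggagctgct
CD9: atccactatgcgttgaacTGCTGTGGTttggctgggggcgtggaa
CD63: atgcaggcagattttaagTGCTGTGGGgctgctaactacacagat

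The capitals of CD81 lie on chromosome 11 at bases 2395875 to 2395883 of the forward strand, in exon 6 of 8, at codon 156 of 236. Those of TSPAN8 lie on chromosome 12 at bases 71132810 to 71132818 of the reverse strand, in exon 7 of 9, at codon 151 of 237. Those of CD9 are at 6235482 to 6235490 on the forward strand of chromosome 12, in exon 6 of 8, at codon 152 of 228. Those of CD63 are at 55726247 to 55726255 on the reverse strand of chromosome 12, in exon 6 of 8, at codon 145 of 238. All 10 members hold such codons in frame, against 2.73% of 19783 coding sequences. The codons stand once in 6 members and at 2 places in CD81, CD9, CD63 and TSPAN8, and for these genes the copy in the larger extracellular loop, at the codon numbers above, is the one printed.

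CD81 stands on the short arm of chromosome 11, with its annotated gene at bases 2376177 to 2397419 of GRCh38. It was listed at 18.5 RPKM in the parent, from 124 reads, with a 95% Poisson interval of 15.3 to 22.0. It was listed at 0 in subclone 1 and at 0 in subclone 2. The subclones therefore both lay below the parent, and nothing separated them from each other. A subclone library with CD81 at the parental rate would have held 127 reads in subclone 1 and 131 in subclone 2.

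Read as counts of 0, the CD81 values allow up to 3 reads, which would be 0.435 RPKM in subclone 1 and 0.424 in subclone 2. With 3 reads and the parental value taken as exact, CD81 would be 42.4-fold lower in subclone 1 and 43.5-fold lower in subclone 2. Exact binomial intervals that also take in the counting error of the parental library began lower, at 34.0-fold and 34.9-fold. The log2 ratio of RPKM + 0.1 was -7.54 in both, a value that the added 0.1 sets. A gene can also be listed at 0 through the way reads were counted. EIF4A1 is a translation initiation factor that cells use throughout. It was listed at 0 RPKM in the parent, 0.229 RPKM in subclone 1 and 0.112 RPKM in subclone 2. EIF4A1 was thus at or near 0 in every library, and CD81 was at 0 in the subclones only. None of 77 cytosolic ribosomal protein genes was at 0 in any library. These other genes do not show how reads of CD81 were counted. The recovered reads of the listed genes summed to the recovered library totals within 2, 9 and 3 reads, but both come from the listed rows, so a row removed before RPKM were computed would not show. Why CD81 was listed at 0 was not tested. In cultures, fewer cells carrying an mRNA and less of it in each cell cannot be told apart.

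Among 6404 genes with at least 124 reads in the parent, 1 was at 0 in both subclones, and that gene was CD81. Among 9864 genes with at least 30 parental reads there were 2, CD81 and PRRX1, a mesenchymal homeobox gene at 1.86 RPKM in the parent. In the other direction, 3 genes were at 0 in the parent with at least 30 reads in both subclones: PRAME, GTSF1 and SMEK3P. The cut of 124 reads is the parental count of CD81 itself, and the CD81 values chose the group, so its place in these counts carries no weight. PRRX1 and these 3 genes are named after their values were seen.

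The order of the members by level was headed by CD63, CD151 and CD9 in every library. In the parent CD81 came next at 18.5 RPKM, and its interval overlapped that of TSPAN8 at 15.8 RPKM (12.5 to 19.6), which overlapped that of TSPAN31 at 13.8 RPKM (11.3 to 16.6). TSPAN8 stood alone after CD9 in subclone 1, at 49.0 RPKM (43.3 to 55.4). In subclone 2 its 101 RPKM (93.1 to 110.1) overlapped CD9 at 112 RPKM (104 to 121). TSPAN1, CD37 and CD82 closed the order with a few reads each, apart from CD81 itself in the subclones.

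**Figure D1:**
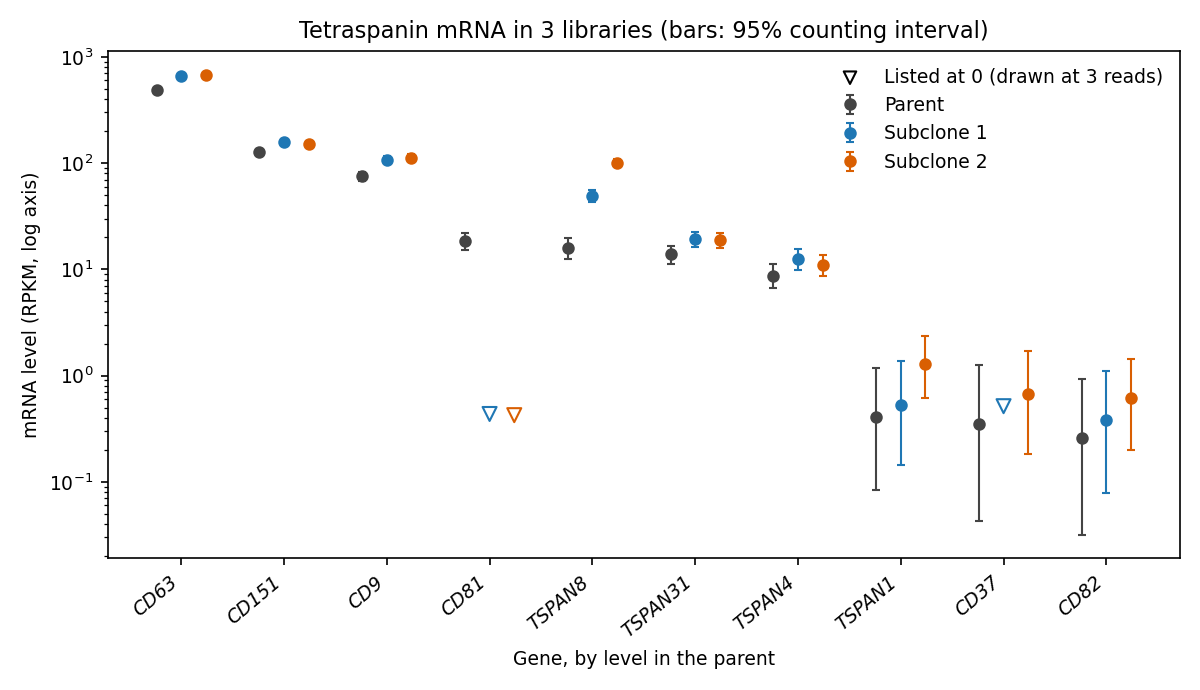
mRNA level in RPKM (log axis) of the 10 tetraspanins in the parent, subclone 1 and subclone 2, with 95% Poisson intervals as bars and open triangles at the level of 3 reads where a gene was listed at 0. CD81 stands at 18.5 RPKM in the parent and at 0 in both subclones, TSPAN8 climbs from 15.8 to 49.0 and 101 RPKM, and CD63, CD151 and CD9 lead in each library.

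TSPAN8, a tetraspanin of digestive epithelia and of several carcinomas, has its annotated gene on the reverse strand of chromosome 12 at bases 71125085 to 71441898. It was at 15.8 RPKM (82 reads) in the parent, 49.0 RPKM (262 reads) in subclone 1 and 101 RPKM (555 reads) in subclone 2. The 3 intervals did not overlap, and subclone 2 was the highest. Relative to the parent it was 3.11-fold higher in subclone 1 (95% interval of counting error 2.42 to 4.04) and 6.43-fold higher in subclone 2 (5.09 to 8.21). Subclone 2 stood 2.07-fold above subclone 1 (1.78 to 2.40). Among the 11370 genes with a mean of at least 1 RPKM, these log2 ratios of 1.63, 2.68 and 1.05 were at percentiles 98.1, 99.3 and 98.7.

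CD63 is the tetraspanin of late endosomes, lysosomes and exosomes. It was the most abundant member, at 485 RPKM (2244 reads) in the parent, 668 RPKM (3174 reads) in subclone 1 and 669 RPKM (3260 reads) in subclone 2. Both subclones were 1.38-fold above the parent, with intervals of 1.30 to 1.45 and 1.31 to 1.46, and their own ratio was 1.00 (0.954 to 1.05).

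CD9 binds immunoglobulin-superfamily partners and is known for its part in cell fusion and motility. It was at 75.4 RPKM (447 reads) in the parent, 108 RPKM (660 reads) in subclone 1 and 112 RPKM (700 reads) in subclone 2. Against the parent, subclone 1 was higher by 1.44-fold (1.27 to 1.62) and subclone 2 by 1.49-fold (1.32 to 1.68). The subclones overlapped each other, with a ratio of 1.03 (0.929 to 1.15).

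CD151, which associates with laminin-binding integrins, was at 126 RPKM (893 reads) in the parent, 159 RPKM (1157 reads) in subclone 1 and 152 RPKM (1128 reads) in subclone 2. The folds over the parent were 1.26 (1.16 to 1.38) and 1.20 (1.10 to 1.31). The subclones overlapped, with a ratio of 0.951 (0.875 to 1.03). CD63, CD9 and CD151 were thus each higher in both subclones than in the parent by more than counting error, at a size between 1.20-fold and 1.49-fold that the absence of replicates leaves without a check.

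TSPAN31, a gene co-amplified with CDK4 in some sarcomas, was at 13.8 RPKM (108 reads), 19.1 RPKM (154 reads) and 18.9 RPKM (156 reads) in the parent, subclone 1 and subclone 2. The folds were 1.39 (1.08 to 1.79) and 1.37 (1.07 to 1.77). Its exons share 1078 bases with those of CDK4 on the opposite strand, and whether strand was used in counting is not given in the sources used here. The value of TSPAN31 may thus hold reads of its neighbour and is uncertain. CDK4 itself was at 216, 194 and 184 RPKM, lower in the subclones, where TSPAN31 was higher.

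TSPAN4, which builds the migration organelles called migrasomes, was at 8.74 RPKM (58 reads), 12.5 RPKM (85 reads) and 10.9 RPKM (76 reads) in the same order. The fold in subclone 1 was 1.43 (1.01 to 2.03) and that in subclone 2 was 1.24 (0.873 to 1.78), an interval that includes no difference.

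The remaining 3 members were too low to compare. CD82, known as a suppressor of metastasis, had 2, 3 and 5 reads (0.260, 0.379 and 0.617 RPKM). TSPAN1, an epithelial member, had 3, 4 and 10 reads (0.408, 0.529 and 1.29 RPKM), and the interval of its ratio in subclone 2, from 0.815 to 17.9, included no difference. CD37, a leukocyte member, had 2, 0 and 4 reads (0.353, 0 and 0.670 RPKM), and its exons share 12 bases with TEAD2. A difference in these 3 genes was not detectable at this depth.

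Of the 10 members, 7 had a mean of at least 1 RPKM over the libraries, and CD81 passed only through the parent. In subclone 1 against the parent, 1 of the 7 (TSPAN8) was at least 2-fold higher, where 4.90% of the 11370 genes were, and 1 (CD81) at least 2-fold lower, where 1.82% were. In subclone 2 against the parent the counts were again 1 higher (TSPAN8) and 1 lower (CD81), with 5.33% and 2.16% of all genes. In subclone 2 against subclone 1, 1 member (TSPAN8) was higher, with 1.42% of all genes, and 0 were lower, with 1.39%. With RPKM divided by the library upper quartile, the log2 ratio of TSPAN8 between the subclones was 1.00, just short of the 2-fold line. These values chose the group, so nothing is read from the counts. Both subclones were compared with the same parental library, whose error enters both ratios.

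**Figure D2:**
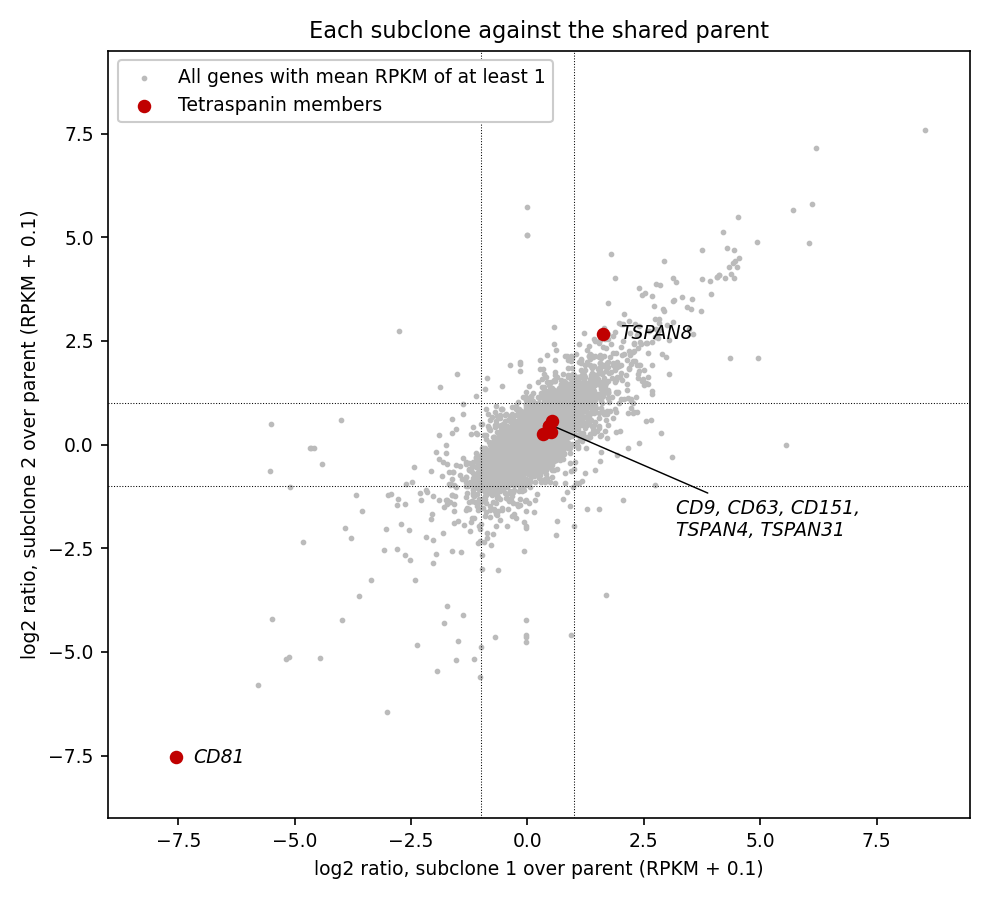
log2 ratio of RPKM + 0.1 over the parent in subclone 1 (horizontal) and subclone 2 (vertical) for the 11370 genes with a mean of at least 1 RPKM (grey) and the 7 tetraspanins that pass (red), with dotted lines at 2-fold. CD81 lies at -7.54 on both axes and TSPAN8 at 1.63 and 2.68, while CD9, CD63, CD151, TSPAN4 and TSPAN31 lie between 0.26 and 0.57. The axes share the parental library, so a common slope of the cloud is partly built in.

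The rest of the family gives the setting. Of 33 tetraspanin genes, 27 were listed in any library and 20 had a mean of at least 1 RPKM. The summed level of the family was 1019 RPKM in the parent, 1338 RPKM in subclone 1 and 1453 RPKM in subclone 2. CD63 made up 47.6%, 49.9% and 46.1% of that sum. The share of TSPAN8 was 1.55%, 3.66% and 6.98%, and that of CD81 was 1.81% in the parent and 0 in the subclones. Over these 20 genes the median log2 ratio against the parent came to 0.45 for subclone 1 and 0.38 for subclone 2, where the medians of all genes were 0.00 and 0.04. The 20 include the 7 members whose values chose the group, and the 13 genes outside it had lower medians of 0.17 and 0.23.

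Among the 23 tetraspanins outside the group, 13 passed the same level. In subclone 1, 2 of them were at least 2-fold higher than in the parent and 0 lower, beside 4.90% and 1.82% of all genes, with a median log2 ratio of 0.17. In subclone 2, 4 were higher and 0 lower, beside 5.33% and 2.16% of all genes, with a median of 0.23. UPK1B, a uroplakin subunit, was at 7.68, 16.6 and 30.7 RPKM in the parent, subclone 1 and subclone 2, and thus 2.17-fold (1.63 to 2.91) and 4.0-fold (3.08 to 5.26) its parental level. Like TSPAN8, it was higher in subclone 2 than in subclone 1, by 1.85-fold (1.52 to 2.25). TSPAN33 was at 10.1, 28.1 and 21.6 RPKM, and it was higher in subclone 1 (2.77-fold, 2.27 to 3.41) than in subclone 2 (2.13-fold, 1.73 to 2.64). TSPAN3 was at 60.5, 82.0 and 129.6 RPKM, which is 1.36-fold (1.25 to 1.47) and 2.14-fold (1.99 to 2.31). TSPAN12, a co-receptor component of Norrin signalling through Frizzled, had only 11, 22 and 32 reads. Its folds of 1.95 (0.905 to 4.45) and 2.76 (1.36 to 6.08) are wide. At 0.950 RPKM in the parent, TSPAN12 passed the level only through the subclones, so its place in these counts carries no weight. The lowest ratio after that of CD81 in subclone 1 was TSPAN6, at 36.1, 19.2 and 24.1 RPKM, which was 0.532 (0.442 to 0.639) and 0.669 (0.564 to 0.793) of the parent.

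**Figure D3:**
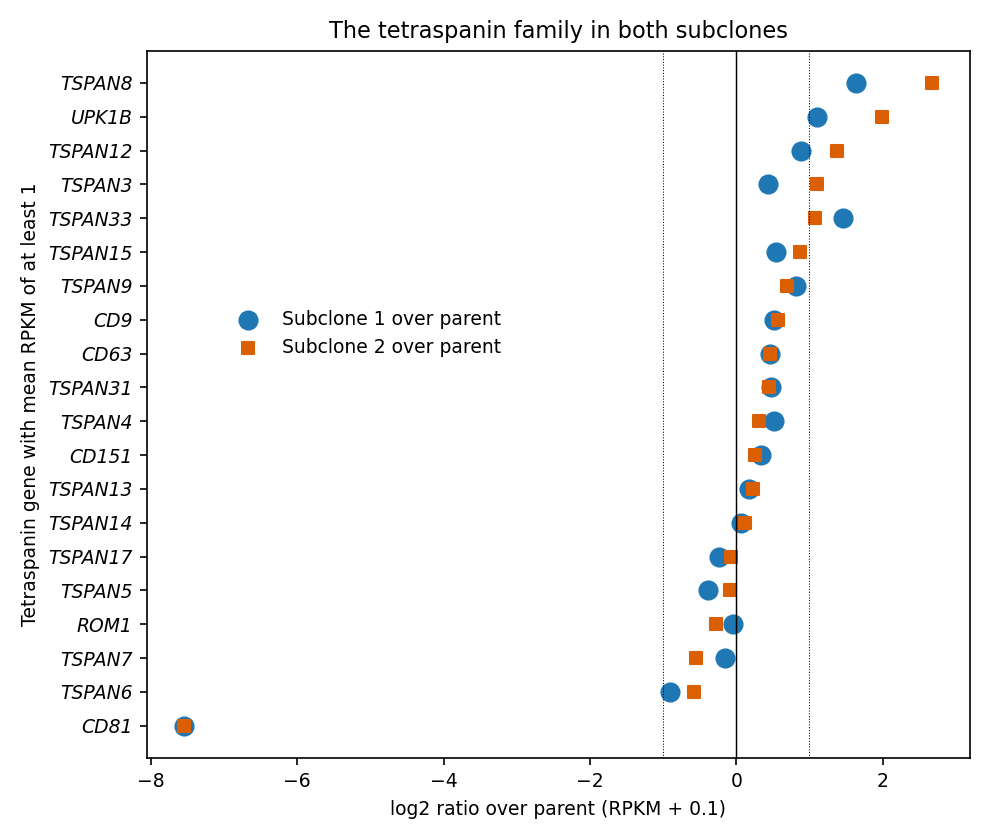
log2 ratio of RPKM + 0.1 over the parent for the 20 tetraspanin genes with a mean of at least 1 RPKM, with circles for subclone 1, squares for subclone 2 and dotted lines at 2-fold. CD81 is the only gene beyond the lower line, at -7.54 for both subclones, and TSPAN8, UPK1B, TSPAN12, TSPAN3 and TSPAN33 reach past the upper line in subclone 2.

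ADAM10 and its tetraspanin chaperones of the TspanC8 group regulate shedding of cell surface proteins. Of 7 such genes, 6 passed the level, and 1, TSPAN33, was at least 2-fold higher in each subclone, with 0 lower, where 4.90% and 5.33% of all genes were higher. Their median log2 ratios were 0.09 and 0.06. ADAM10 itself was at 39.3, 42.1 and 39.2 RPKM. TSPAN15 was at 23.9, 35.1 and 43.7 RPKM, which is 1.47-fold (1.22 to 1.78) and 1.83-fold (1.53 to 2.20) higher than the parent. In the other direction, TSPAN5 was at 11.2, 8.60 and 10.6 RPKM, or 0.769 (0.609 to 0.969) and 0.944 (0.759 to 1.17) of the parent. TSPAN17 was at 12.1, 10.2 and 11.5 RPKM, with intervals that included no difference.

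Of 16 proteins known to associate with tetraspanins, 12 passed. In subclone 1, 2 were at least 2-fold higher and 0 lower (all genes 4.90% and 1.82%), with a median log2 ratio of 0.13. In subclone 2, 3 were higher and 0 lower (all genes 5.33% and 2.16%), with a median of 0.23. CLDN1 passed the level only through the subclones and HBEGF only through subclone 2, so their places in these counts carry no weight. CLDN1, a tight junction protein that pairs with CD81 as a co-receptor of hepatitis C virus, was at 0.774 RPKM (12 reads), 5.84 RPKM (93 reads) and 12.7 RPKM (207 reads). The folds over the parent were 7.55 (4.12 to 15.1) and 16.4 (9.18 to 32.2). CLDN1 is named because its ratios were the largest of this list, and a link of its level to CD81 or TSPAN8 was not tested. MMP14, a membrane metalloproteinase, was at 8.08, 17.9 and 15.8 RPKM, or 2.21-fold (1.79 to 2.74) and 1.96-fold (1.58 to 2.44). PTGFRN, a direct partner of CD81 and CD9, was at 6.26, 12 and 14.3 RPKM, or 1.92-fold (1.59 to 2.32) and 2.28-fold (1.90 to 2.74). HBEGF, a growth factor precursor that CD9 binds, had 10, 10 and 27 reads, and only subclone 2 was above the parent, by 2.56-fold (1.20 to 5.94). IGSF8, the other direct partner of CD81 and CD9, was at 6.66, 7.40 and 8.20 RPKM, with intervals that included no difference.

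Of the 18 genes of extracellular vesicle formation and release, 17 passed, and 0 were past 2-fold in either direction in either subclone. Over all genes 4.90% were higher and 1.82% lower in subclone 1, and 5.33% and 2.16% in subclone 2, so a count of 0 among 17 is near the background. Their median log2 ratios over the parent were 0.11 and 0.18. Differences below 2-fold included FLOT1, a lipid raft scaffold, at 49.1, 82.9 and 83.0 RPKM, 1.69-fold above the parent in each. CHMP4B, an ESCRT subunit, was at 85.8, 124 and 135 RPKM, and SDC4, a syndecan, at 30.2, 38.4 and 52.7 RPKM. RAB27A, a secretory GTPase, was at 9.04, 14.2 and 11.1 RPKM. These 4 had the largest ratios of the list, and other genes were lower. Among those, PDCD6IP was at 40.7, 30.6 and 34.7 RPKM, or 0.751 (0.685 to 0.822) and 0.853 (0.781 to 0.930) of the parent.

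All 9 host factors of hepatitis C virus entry passed the level. In subclone 1, 1 was at least 2-fold higher (CLDN1) and 1 lower (CD81), beside 4.90% and 1.82% of all genes, with a median log2 ratio of 0.11. In subclone 2, 2 were higher and 1 lower (again CD81), beside 5.33% and 2.16% of all genes, with a median of 0.38. CD81 passed the level only through the parent and chose the group, so its place in these counts carries no weight. The additional gene in subclone 2 was occludin, which the files carry under the symbol LOC100506658, at 0.898, 1.38 and 2.07 RPKM and 2.30-fold (1.44 to 3.79) above the parent. Occludin and CLDN1 were below 1 RPKM in the parent and passed the level only through the subclones, so their places carry no weight either. NPC1L1, a cholesterol transporter, was at 2.15, 3.98 and 3.13 RPKM. SCARB1, the scavenger receptor that binds the virus beside CD81, was at 183, 198 and 187 RPKM, close to the parent in both.

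The listed genes on both sides of CD81 on chromosome 11 were read in their RefSeq order. TSSC4, the next listed gene after CD81, was at 13.4 RPKM (87 reads) in the parent, 7.22 RPKM (48 reads) in subclone 1 and 9.68 RPKM (66 reads) in subclone 2. It was listed in every library, at 0.537 (0.370 to 0.773) and 0.721 (0.515 to 1.00) of the parent. H19, an imprinted non-coding RNA and the last listed gene before CD81, went the other way, at 142, 832 and 778 RPKM, or 5.85-fold and 5.47-fold. MRPL23, a mitochondrial ribosomal protein gene further out, was at 34.4, 37.8 and 34.6 RPKM. CDKN1C, a cell cycle inhibitor on the far side, was at 10.3, 29 and 22.7 RPKM, or 2.81-fold and 2.20-fold. SLC22A18AS was at 5.12, 5.41 and 6.90 RPKM, and TNNI2, LSP1, MRPL23-AS1, KCNQ1 and KCNQ1OT1 were below 1 RPKM in every library. None of the 5 listed genes on each side had more than 1 RPKM in the parent and none in the subclones, as CD81 did. The CD81 values chose the group, and the neighbours below 1 RPKM could not have met this description, so nothing is read from it.

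**Figure D4:**
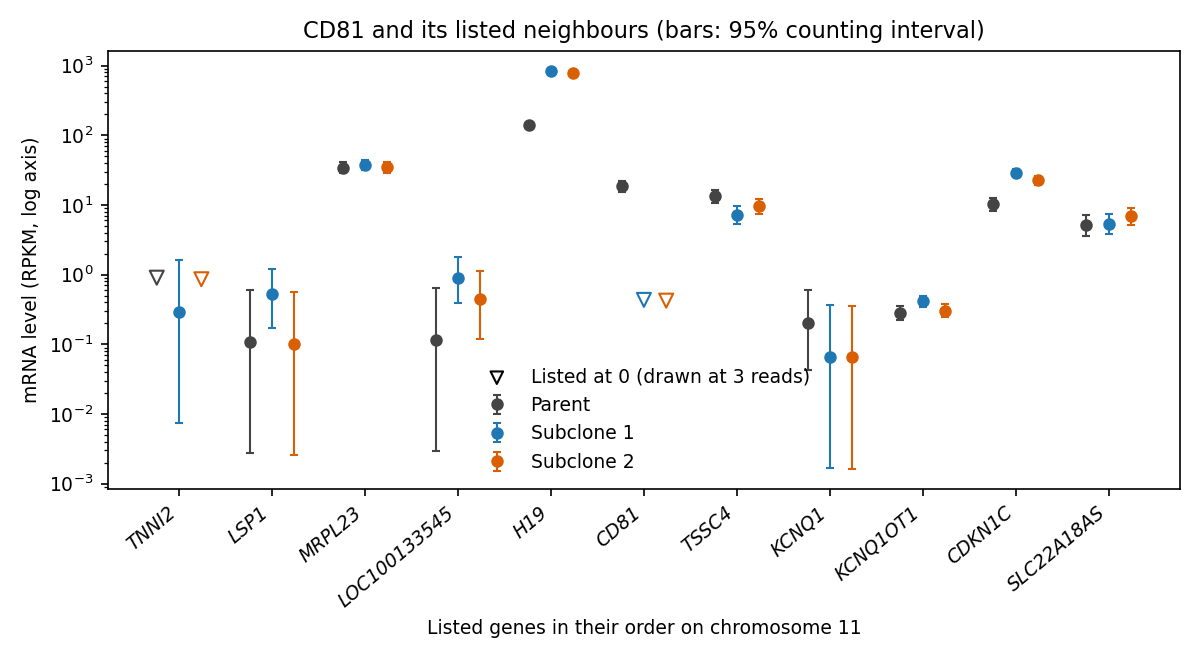
mRNA level in RPKM (log axis) of CD81 and of the 5 listed genes on each side of it in RefSeq order, per library, with 95% Poisson intervals as bars and open triangles at the level of 3 reads where a gene was listed at 0. TSSC4 and MRPL23 keep levels above 7 RPKM in each library and H19 is highest in the subclones, while CD81 falls from 18.5 RPKM to 0.

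The genes most like CD81 were sought by the distance between pairs of log2 ratios over the parent, among genes with a mean of at least 5 RPKM. The closest was BACE2, a membrane protease, at a distance of 5.85 log2 units, with 13.0 RPKM in the parent, 0.362 RPKM in subclone 1 and 2.47 RPKM in subclone 2. INHBB, a subunit of activin B, followed at 5.98, with 17.4, 1.62 and 1.71 RPKM, then VCAN at 6.48 (15.5, 1.03 and 3.17 RPKM), NMRAL1 at 6.61 (13.0, 0.774 and 3.17 RPKM) and SOST at 6.81 (16.8, 7.57 and 0.365 RPKM). Each of these genes kept reads in both subclones. CPLX2, a regulator of vesicle fusion named after its values were seen, has a mean of 4.68 RPKM and so was not ranked. Its log2 ratios of -3.01 and -6.45 lie nearer to those of CD81 than the ratios of BACE2 do. The same holds for CD33 (-5.49 and -4.21) and PRRX1 (-4.29 in both), which were not ranked either and lie nearer than CPLX2. CPLX2 had 266 reads in the parent, 32 in the lung-directed subclone 1 and 1 in subclone 2, at 12.5, 1.47 and 0.0448 RPKM. Because the position of CD81 rests on the added 0.1, these distances change with it.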

How the data were processed

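Per the labels, total RNA was taken with Trizol and made into Illumina TruSeq libraries, 1 per line. The authors deposited RPKM per gene, with its Entrez number and symbol. The submitters' processing notes name hg19, and the aligner, counter, annotation and use of strand are not given in the sources used here. A gene missing from a list was set to 0.

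Rows of each list stand in falling order of reads, which, with the RPKM, gave library totals, gene lengths and whole reads for 16075 genes. The recovery was tested on simulated data. Ratios were log2 of (RPKM + 0.1). The background was the 11370 genes whose mean RPKM reached 1. Levels have 95% Poisson and folds 95% Clopper-Pearson intervals. A count of 0 was bounded by 3 reads. With 1 library a line there was no test and no p-value.

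The 10 members and every gene list were chosen with earlier results of these data known. Members were all named, with, per list, up to 4 genes of the largest ratio over the parent (genes named for their role are additional), the 5 genes most like CD81 and 5 listed neighbours on each side. PRRX1, PRAME, GTSF1, SMEK3P, EIF4A1, CPLX2, CD33, CDK4, TEAD2, TSPAN6, PDCD6IP, IGSF8, ADAM10 and SCARB1 fall outside that rule. So do the genes most like TSPAN8. Alternatives were the pseudocount, scaling, the filter on low values and the fold. Gene places and coding sequences are from GENCODE 29 (GRCh38), matched by symbol. Python 3.11.15, pandas 2.3.3 and scipy 1.17.1 were used.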

Additional observations from a re-analysis of the deposited data

Results flagged for a closer look

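CD37 was the member whose log2 ratio over the parent had opposite signs in the subclones, -2.18 in subclone 1 and 0.77 in subclone 2. Its reads numbered 2, 0 and 4 in the parent and the subclones. The difference was not tested, since each line has 1 library, and the interval of its ratio in subclone 2, from 0.272 to 21.0, includes no difference.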

How the results depend on the processing

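Of 203 values of the members' log2 ratios under other settings, 196 stayed within the counting interval of the value reported and 7 moved outside it. Those outside were CD81 over the parent in both subclones with a pseudocount of 1. The others were CD63 after division by ACTB or GAPDH and CD151 after division by ACTB. The CD81 interval has no lower end and those of CD82, TSPAN1 and CD37 are very wide, so staying inside says little for these genes. No ratio past 2-fold changed sign. Ratios between the subclones that lay near 0 did so under some scalings, from -0.12 to 0.05 for CD151, -0.05 to 0.13 for CD63 and -0.07 to 0.11 for TSPAN31. The ratio of CD81 over the parent was -4.28 in both subclones with a pseudocount of 1 and -10.85 in both with 0.01. Over 7 alternatives, CD9, CD63, CD151, TSPAN4 and TSPAN31 stayed above the parent in both subclones. In subclone 2 over subclone 1, 0 members were at least 2-fold higher when RPKM were divided by the library upper quartile, where the log2 ratio of TSPAN8 was 1.00. Without the filter, 2 of the 10 members were lower in subclone 1, beside 884 of all 16149 genes. In subclone 2 over the parent 2 were higher, beside 1553 genes, and in subclone 2 over subclone 1, 3 were higher, beside 842. The members that the filter had held back in these counts were CD37 and TSPAN1, which had too few reads to compare.

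Counts over all genes, higher and lower, for subclone 1 over parent, subclone 2 over parent and subclone 2 over subclone 1 in turn, were 347 and 117, 380 and 150, and 80 and 77 with a pseudocount of 1, and 1523 and 884, 1553 and 941, and 842 and 902 with no filter. They were 233 and 71, 253 and 93, and 43 and 46 where the mean RPKM had to reach 5, and 1317 and 848, 1444 and 830, and 540 and 467 at 1.5-fold. Division by ACTB gave 328 lower in subclone 1. Of genes past 2-fold in subclone 1, 72.9% were higher, and 57.8% after division by ACTB. In subclone 2 over subclone 1, 50.5% were higher, and 64.0% and 62.6% after division by ACTB and GAPDH. Division by ACTB moved the median of all genes by -0.13 in subclone 1 over parent and to 0.16 in subclone 2 over subclone 1, and division by GAPDH moved the latter to 0.15.

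No paired analysis was possible because each line has 1 library. Leaving out a library would leave a line with none. CD81 has no ratio between the subclones, since it was listed in neither. Depth limits CD82, TSPAN1 and CD37, which had 10 reads or fewer in every library.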

Other observations

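The genes whose ratios over the parent were closest to those of TSPAN8, chosen after values were seen, were LGALS4, an intestinal galectin, at 43.1, 138 and 262 RPKM in the parent, subclone 1 and subclone 2, and ERBB3, a receptor of the epidermal growth factor family, at 5.80, 17.6 and 35.4 RPKM. ABCB1, a drug efflux pump, was at 2.74, 9.33 and 18 RPKM, SCNN1A, a subunit of the epithelial sodium channel, at 4.71, 15.2 and 28.1 RPKM, and CDHR2, a protocadherin of the brush border, at 2.17, 6.59 and 12.9 RPKM. Their order over the lines follows from how they were chosen. They were at a distance of 0.09 to 0.17 log2 units from TSPAN8 over the 3 libraries.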
